A study of Mus musculus with 48 samples.

Results

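The aminoacyl-tRNA synthetases are the enzymes that join each amino acid to its own transfer RNA before translation. The set was defined by name, as every gene whose symbol names a cytosolic or a mitochondrial synthetase. Members were not picked by their values, but the family itself was chosen with earlier results of these data known. It held 37 of the 51789 gene identifiers in the count table, of which 20 encode cytosolic and 17 encode mitochondrial enzymes. Gars and Kars, counted here with the cytosolic enzymes, also supply the mitochondrial glycyl and lysyl enzymes from the same gene. All 37 genes passed the filter on low counts.

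The genes were followed in mouse macrophages given AP-3-84, a compound known here by its code name, at 10 µM for 4 h, or vehicle (DMSO). Messenger RNA was counted by 3′ tag sequencing in 48 libraries, 3 for each of 16 groups, which were 8 macrophage populations with and without the compound. Ascites macrophages came from mice bearing ID8 tumours (a mouse ovarian cancer line) 45 days after injection, and their genotype is given as B6(Cg)-Tyrc-2J/J. Thioglycollate macrophages came from the peritoneum of intact wild-type C57BL/6 mice that had received thioglycollate, a sterile irritant that recruits monocytes, as 1 mL of a 3% solution 4 days earlier. Both kinds were sorted on beads by the macrophage surface protein F4/80. Macrophages of the other 6 populations were derived from bone marrow and grown for 6 days in M-CSF at 10 ng/mL from wild-type (WT) or p53 knockout (KO) C57BL/6 marrow. The knockout is given in the sample names and the design text, while the genotype field reads wild-type for these libraries too. They were left as M0, given LPS at 100 ng/mL with IFN-γ at 50 ng/mL for 24 h (M1), or polarized to M2 over 24 h with the cytokines IL-4 and IL-13, each at 10 ng/mL. The labels do not say that the 3 libraries of a group came from separate animals or cultures, so the p-values measure only the spread between these libraries.

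Cytosolic synthetases work beside the ribosome, and 8 of them sit with scaffold proteins in the multi-synthetase complex (Dars, Eprs, Iars, Kars, Lars, Mars, Qars and Rars). When amino acids run short or proteins misfold, kinases phosphorylate the initiation factor eIF2α, general translation slows, and the transcription factor ATF4 is made. This integrated stress response raises genes for amino acid uptake and synthesis (Asns, Psat1), the regulators Ddit3 and Trib3, the glutathione-degrading enzyme Chac1, and many cytosolic synthetases. Mitochondrial synthetases charge the transfer RNAs used inside the organelle and are not classical ATF4 targets. Wars, the tryptophanyl enzyme, is also induced by interferon-γ.

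ATF4 binds composite C/EBP-ATF elements, so the promoters were read for the letters TGATGNAA on both strands. The RefSeq promoter table (GRCm38.p6, 250 bases before to 50 after each start) held 27 of the 37 genes, 13 cytosolic and 14 mitochondrial. The letters stood in 5 of the 13 cytosolic genes and in 0 of the 14 mitochondrial genes, against 3.97% of all 32851 promoter windows. Of an integrated stress response list with promoters in the table, 9 of 27 genes held them. All 5 synthetases with the letters were among the 15 of 20 cytosolic ones called higher with AP-3-84 in KO M0 cells, described below. At that share the overlap says little, and a link to the letters was not tested. The stretches are shown because of this overlap. Each is 30 bases, 5′ to 3′ on the strand that carries the match, with the match in capitals. The stretch of Aars, the alanyl enzyme, is chr8:111033840-111033869 (minus strand). Gars had one in chr6:55037960-55037989 (minus strand), Iars in chr13:49682126-49682155 (minus strand), Tars in chr15:11399655-11399684 (plus strand) and Yars in chr4:129189895-129189924 (plus strand).
Aars: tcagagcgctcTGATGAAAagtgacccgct
Gars: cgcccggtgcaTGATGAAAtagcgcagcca
Iars: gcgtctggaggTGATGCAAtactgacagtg
Tars: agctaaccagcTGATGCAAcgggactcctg
Yars: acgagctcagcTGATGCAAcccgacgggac
Of 2 interferon elements, the interferon-stimulated response element was found in Qars alone (3.44% of all windows) and the gamma-activated site TTCNNNGAA in Aars, Kars and Nars2 (8.30%). The window of Wars was not in the table. A match is a description of letters and says nothing on binding in these cells.

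Total counts per library were 15532373 to 19417581 in the 12 peritoneal libraries and 3081707 to 4645148 in the 36 bone marrow-derived libraries, and the 2 kinds were fitted apart. The median count of a cytosolic synthetase was 175 to 4267 in peritoneal and 78 to 815 in bone marrow-derived libraries, and that of a mitochondrial one 25 to 563 and 5 to 123. The lower counts of the mitochondrial genes give wider errors. Trp53 counts were 11 to 36 in the 18 libraries labelled KO and 17 to 59 in the 18 labelled WT, and a 3′ tag can lie outside the deleted stretch, so this checks nothing. Cdkn1a, a p53 target, was at 34.1 to 292 counts per 1000000 (CPM) in KO and 555 to 1119 in WT libraries. All 6 macrophage markers were detected in every group, with summed levels of 5674 to 47893 CPM. Summed T cell markers reached at most 4.75 CPM.

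The 3 KO M0 vehicle libraries stood apart from the other M0 libraries. Marco, a macrophage scavenger receptor, was at 16.8, 17.5 and 14.3 CPM in them, against 2896, 2067 and 473 in KO M0 with AP-3-84 and 1171, 1963 and 2070.3 in WT M0 vehicle. The summed level of 6 neutrophil markers was 513 to 636 CPM in them, 268 to 419 in KO M0 with AP-3-84 and 235 to 448 in WT M0 vehicle. Summed macrophage markers were at 32034 to 38699 CPM in KO M0 vehicle and 17396 to 38210.0 in KO M0 with AP-3-84. These libraries enter 4 of the comparisons between groups below (AP-3-84 in KO M0, KO M1 and KO M2 against KO M0, and KO M0 against WT M0), and the last 3 of these are also given with the AP-3-84 libraries of both groups. For the response of KO M0 itself no estimate can be made without them. They also enter the differences of responses that involve M0. The part of this difference in the synthetase results was not tested.

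As a first view, the CPM of the 20 cytosolic genes were summed in each library. With AP-3-84 the sum was 1375 to 1471 CPM in thioglycollate macrophages, against 1176 to 1215 with vehicle. In ascites macrophages it was 1520.2 to 1717 against 1353 to 1393, and in KO M0 cells 2253, 2502 and 1704 against 1272, 1358 and 1348. In these 3 populations no library with AP-3-84 reached down to the vehicle libraries. In WT M1 the sum was 1474 to 1527 against 1397 to 1455, also without overlap. In WT M0, WT M2, KO M1 and KO M2 the 2 treatments overlapped, and in KO M2 the mean was 1751 CPM ± 219 (SD, n = 3) with AP-3-84 and 2015 CPM ± 335 (SD, n = 3) with vehicle. The sum of the 17 mitochondrial genes lay between 124 and 205 CPM in all bone marrow-derived libraries. In KO M0 it was 135 to 150.0 with AP-3-84 and 164 to 179.8 with vehicle, in KO M2 129.6 to 151 and 162 to 205, and in WT M0 124 to 133 and 135 to 143. In these 3 populations every treated library was below every vehicle library, and in the other 5 the mitochondrial sums overlapped. In bulk RNA, fewer cells of a type and less RNA per cell cannot be told apart.

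**Figure D1:**
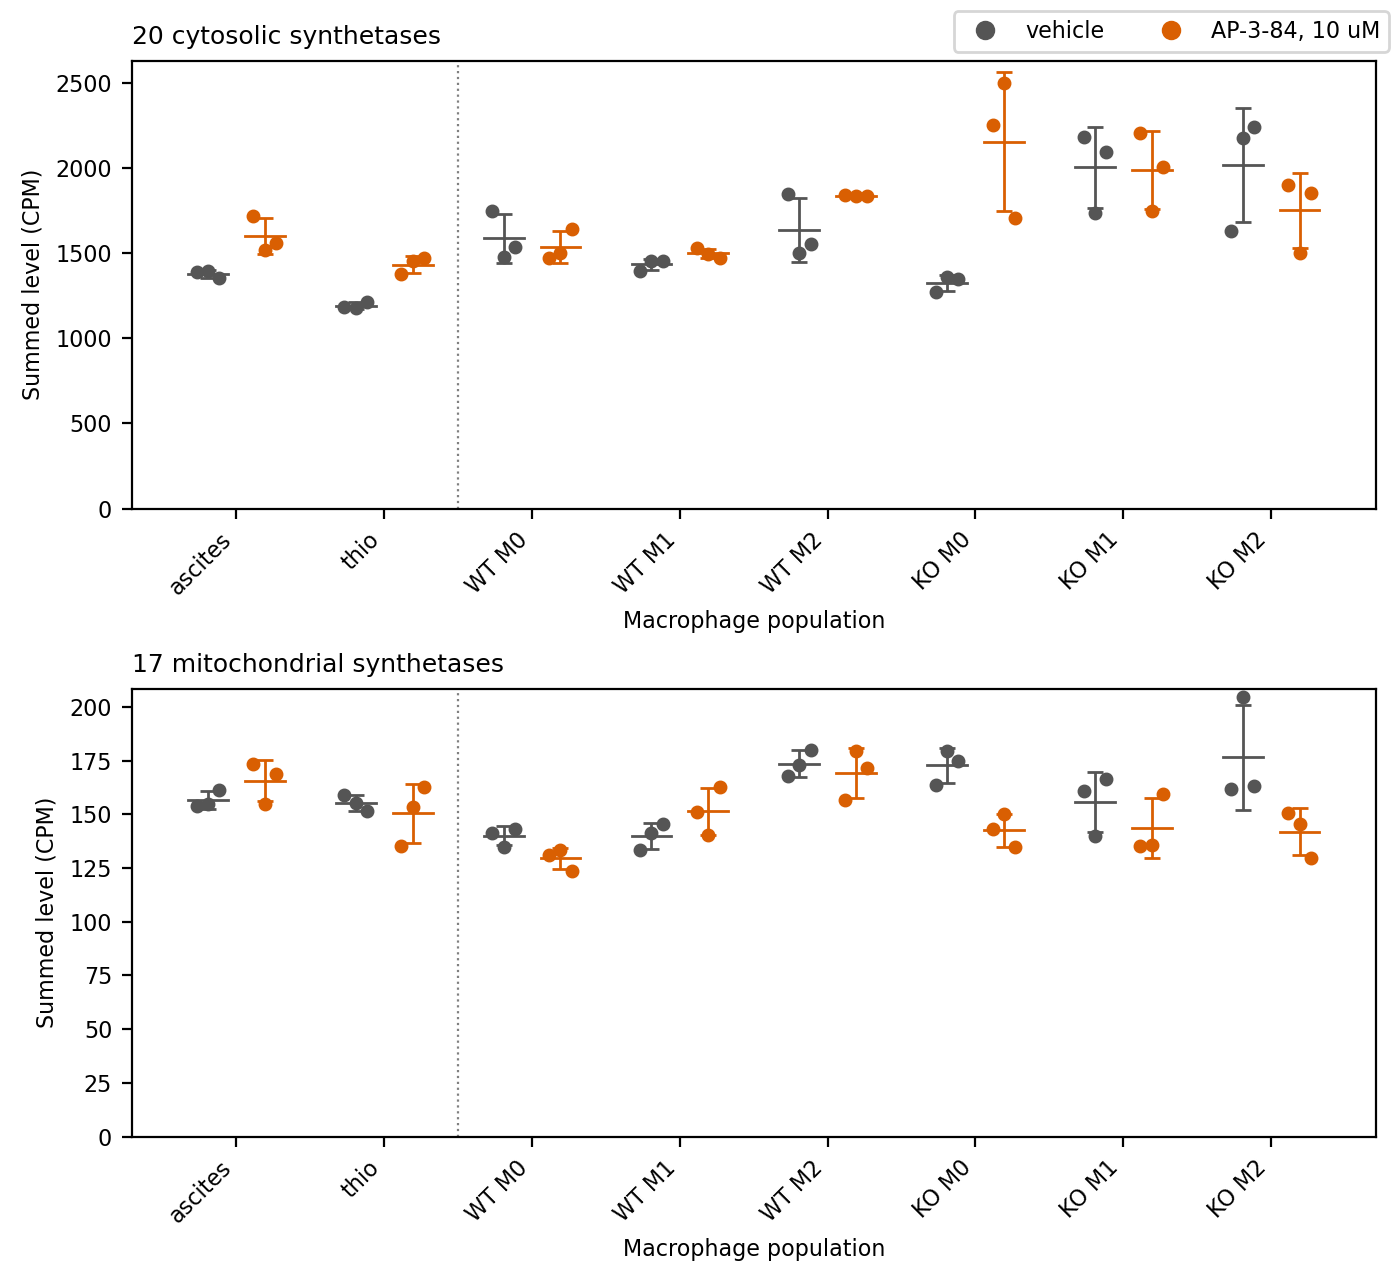
Summed CPM (vertical axes) of the 20 cytosolic and the 17 mitochondrial synthetase genes in each library of the 16 groups (horizontal axis), grey for vehicle and orange for AP-3-84, with the mean as a line and the SD as a bar (n = 3); the dotted line divides the peritoneal from the bone marrow-derived libraries, which were scaled apart. The cytosolic sum of KO M0 cells goes from 1272 to 1358 CPM with vehicle to 1704 to 2502 CPM with AP-3-84, while the mitochondrial sum goes from 164 to 180 down to 135 to 150.

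The first question was which single synthetase genes changed with AP-3-84. Under edgeR's quasi-likelihood test with Benjamini-Hochberg adjustment over all genes, called here at an adjusted p under 0.05, calls fell in 3 of the 8 populations. There were 5 in thioglycollate macrophages, 2 in ascites macrophages and 17 in KO M0 cells. All of the calls in peritoneal cells and 15 of the 17 in KO M0 were cytosolic genes that rose, and the other 2 were mitochondrial genes that fell. Eprs, the glutamyl-prolyl enzyme of the complex, was the 1 gene called in all 3 populations, and Aars, Cars, Sars and Rars were each called in 2.

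**Figure D2:**
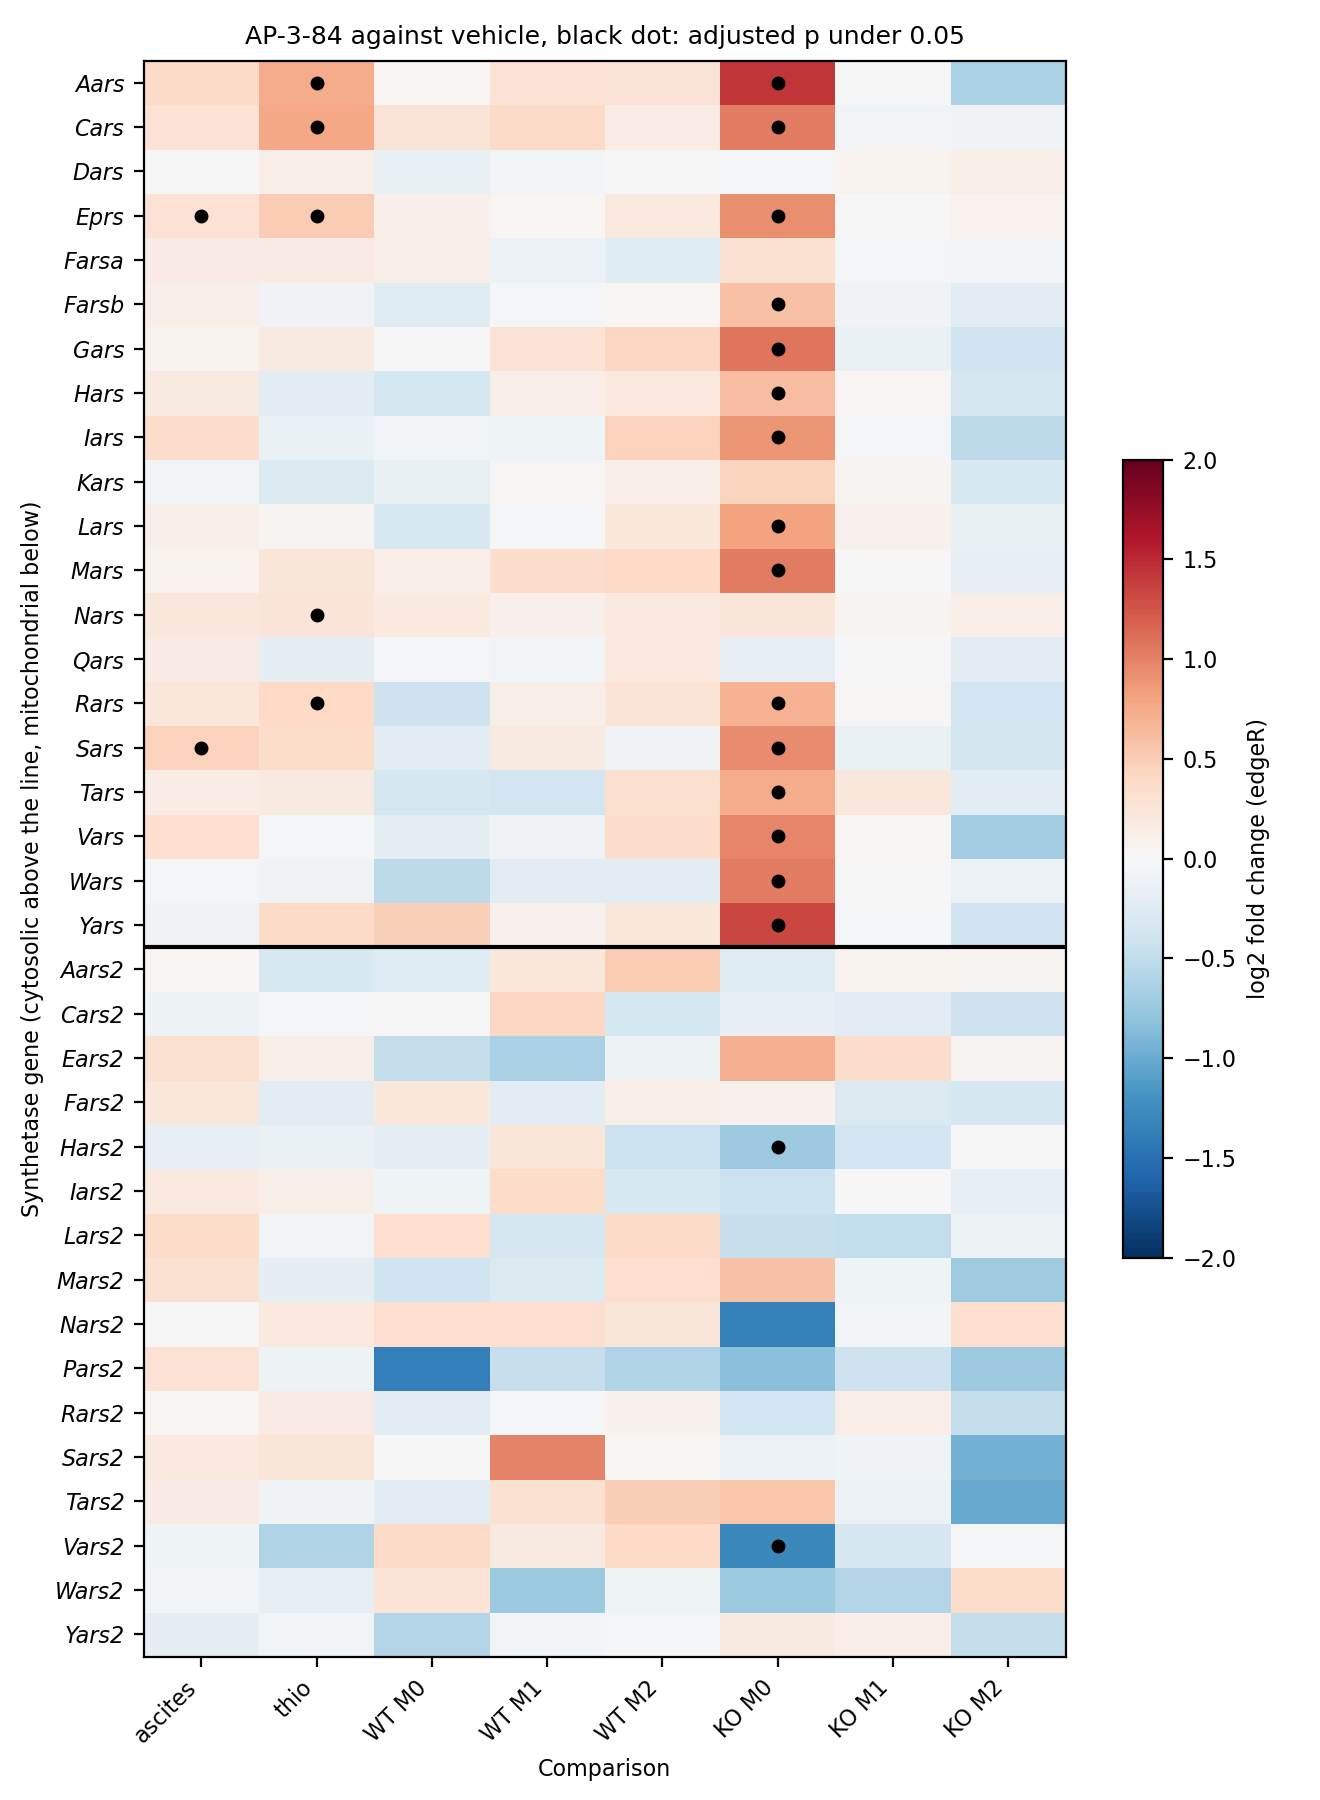
Log2 fold change (colour, from -2 to 2) of 36 of the 37 synthetase genes (vertical axis) with AP-3-84 against vehicle in 8 macrophage populations (horizontal axis), with the cytosolic genes above the line, the mitochondrial genes below it, and a black dot where the adjusted p is under 0.05. Dots stand in 3 columns, with 5 for thioglycollate, 2 for ascites and 17 for KO M0 cells.

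In thioglycollate macrophages 5 of 20 cytosolic synthetases rose with AP-3-84, where 2.51% of all 16955 genes tested rose. The median log2 fold change of the 20 was 0.17, against 0.025 over all genes. Cars, the cysteinyl enzyme, was at 15.1, 13.5 and 17.4 CPM with vehicle and at 22.5, 28.4 and 27.6 with AP-3-84, a log2 fold change of 0.77 ± 0.15 (SE, adjusted p = 0.0069). Aars was at 38.3, 38.0 and 36.9 CPM with vehicle and at 67.2, 52.9 and 69.7 with AP-3-84, a change of 0.75 ± 0.10 (SE, adjusted p = 0.00022). For both genes every treated library was above every vehicle library. Eprs was at 190.0, 186 and 192 CPM with vehicle and at 258, 285 and 262 with AP-3-84, a change of 0.50 ± 0.06 (SE, adjusted p = 0.00011). Rars, the arginyl enzyme, was at 103, 105 and 117 CPM with vehicle and 135, 146 and 147 with AP-3-84, a change of 0.40 ± 0.08 (SE, adjusted p = 0.0078). Eprs and Rars are both held in the complex, and their libraries too did not overlap. Nars, the asparaginyl enzyme, changed by 0.26 ± 0.06 (SE, adjusted p = 0.019). Sars, the seryl enzyme, was at 131, 131 and 132 CPM with vehicle and 153, 172 and 182 with AP-3-84, with a log2 value of 0.36 ± 0.10 (SE, adjusted p = 0.064) that missed the threshold. By edgeR it was called with scaling by total counts (adjusted p = 0.036), without the filter (0.00046) and with only the groups compared (0.0039). By place in the cell, 2 of the 8 complex members and 3 of the 12 other cytosolic genes rose. A list of 12 ATF4 targets was drawn from general knowledge (Aars, Cars, Eprs, Gars, Iars, Lars, Mars, Nars, Sars, Tars, Wars and Yars). Like all gene lists here, it was chosen with earlier results of these data known. Of these 4 rose, and of the other 8 cytosolic genes 1 did. Of the mitochondrial synthetases edgeR called 0 of 17 (1 at an unadjusted p under 0.05, DESeq2 0), and their median was -0.07. Vars2, the mitochondrial valyl enzyme, was at 5.30, 5.16 and 5.48 CPM with vehicle and 3.03, 3.68 and 3.75 with AP-3-84, with a log2 value of -0.61 ± 0.20 (SE, adjusted p = 0.12). Without vehicle replicate 1, 3 of the 5 calls were left, and Rars (adjusted p = 0.054) and Nars (0.097) were lost. With median-ratio size factors Nars was lost too (0.067), as it was when AP-3-84 replicate 2 (0.099) or 3 (0.059), or the second vehicle library (0.10), was left out.

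In ascites macrophages 2 of 20 cytosolic synthetases rose with AP-3-84, where 1.69% of all genes rose. Eprs was at 172, 168 and 155 CPM with vehicle and at 209.7, 193 and 200.3 with AP-3-84, a log2 fold change of 0.28 ± 0.06 (SE, adjusted p = 0.022). Sars was at 122, 132 and 132 CPM with vehicle and 214, 149.7 and 168 with AP-3-84, a change of 0.47 ± 0.10 (SE, adjusted p = 0.028). Both were without overlap, and for Sars the first treated library was well above the other 2. Aars was at 71.0, 60.7 and 63.0 CPM with vehicle and 91.4, 83.0 and 79.6 with AP-3-84, also without overlap, with a log2 value of 0.38 ± 0.10 (SE, adjusted p = 0.059). It missed the threshold in edgeR, but was called by DESeq2 (adjusted p = 0.033) and by edgeR without the filter on low counts (0.0041). Cars had a log2 value of 0.29 ± 0.15 (SE, adjusted p = 0.52), and Rars 0.23 ± 0.08 (SE, adjusted p = 0.22). The median over the 20 cytosolic genes was 0.16 and over the 17 mitochondrial genes 0.05, of which none was called (0 by edgeR, 1 at an unadjusted p under 0.05, 0 by DESeq2). Eprs lost its call without vehicle replicate 2 (adjusted p = 0.085) or 3 (0.15) or AP-3-84 replicate 1 (0.15) or 3 (0.058), and Sars without vehicle replicate 1 (0.15), 2 (0.11) or 3 (0.091) or AP-3-84 replicate 1 (0.10). With libraries scaled by total counts 1 call was left, and the share of all calls that were higher went from 94.4% to 81.8%.

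Whether ascites and thioglycollate macrophages responded differently was tested as the difference of their log2 fold changes. No synthetase was called, where 0.118% of all genes were (edgeR 0 of 37, 7 cytosolic genes at an unadjusted p under 0.05, DESeq2 0). For Aars the difference, ascites minus thioglycollate, was -0.36 ± 0.14 (SE, adjusted p = 0.55), and for Eprs -0.22 ± 0.09 (SE, adjusted p = 0.58). The 5 and 2 calls in these populations are therefore not shown to differ.

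In KO M0 macrophages 15 of 20 cytosolic synthetases rose with AP-3-84, where 12.1% of all 11779 genes tested rose. The median log2 fold change of the cytosolic genes was 0.85, against -0.03 over all genes. Aars was at 60.3, 81.6 and 70.1 CPM with vehicle and at 198, 239.8 and 132 with AP-3-84, a log2 fold change of 1.43 ± 0.20 (SE, adjusted p = 6.0e-06). Yars, the tyrosyl enzyme, was at 14.2, 19.7 and 22.4 CPM with vehicle and 46.5, 64.1 and 31.2 with AP-3-84, a change of 1.33 ± 0.23 (SE, adjusted p = 0.00014). In both genes the third treated library was the lowest of the treated and still above all vehicle libraries. Eprs was at 148, 171 and 147 CPM with vehicle and at 303, 333 and 250.2 with AP-3-84, a change of 0.93 ± 0.14 (SE, adjusted p = 2.2e-05). Cars was at 21.5, 31.1 and 32.7 CPM with vehicle and 70.2, 58.5 and 45.3 with AP-3-84, a change of 1.03 ± 0.23 (SE, adjusted p = 0.0014). Neither gene had overlapping libraries, and the third treated library was again the lowest of the treated. Sars was at 95.9, 105 and 136 CPM with vehicle and 196, 274 and 176 with AP-3-84, a change of 0.94 ± 0.26 (SE, adjusted p = 0.011). Rars was at 69.2, 65.6 and 55.4 CPM with vehicle and 109, 125 and 75.7 with AP-3-84, a change of 0.70 ± 0.21 (SE, adjusted p = 0.015). The third treated library was the lowest of the treated for these genes as well. The other genes that rose were Gars (by 1.07), Wars (1.03), Mars (1.03), Vars (0.98), Iars (0.88), Lars (0.81), Tars (0.73), Hars (0.62) and Farsb (0.58), the enzymes for glycine, tryptophan, methionine, valine, isoleucine, leucine, threonine and histidine and a phenylalanine subunit. Farsb was the only one of the 15 whose libraries overlapped. The 15 were picked by a test on these same libraries, so the lack of overlap adds no support. The share of all genes without overlap is not given here.

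**Figure D3:**
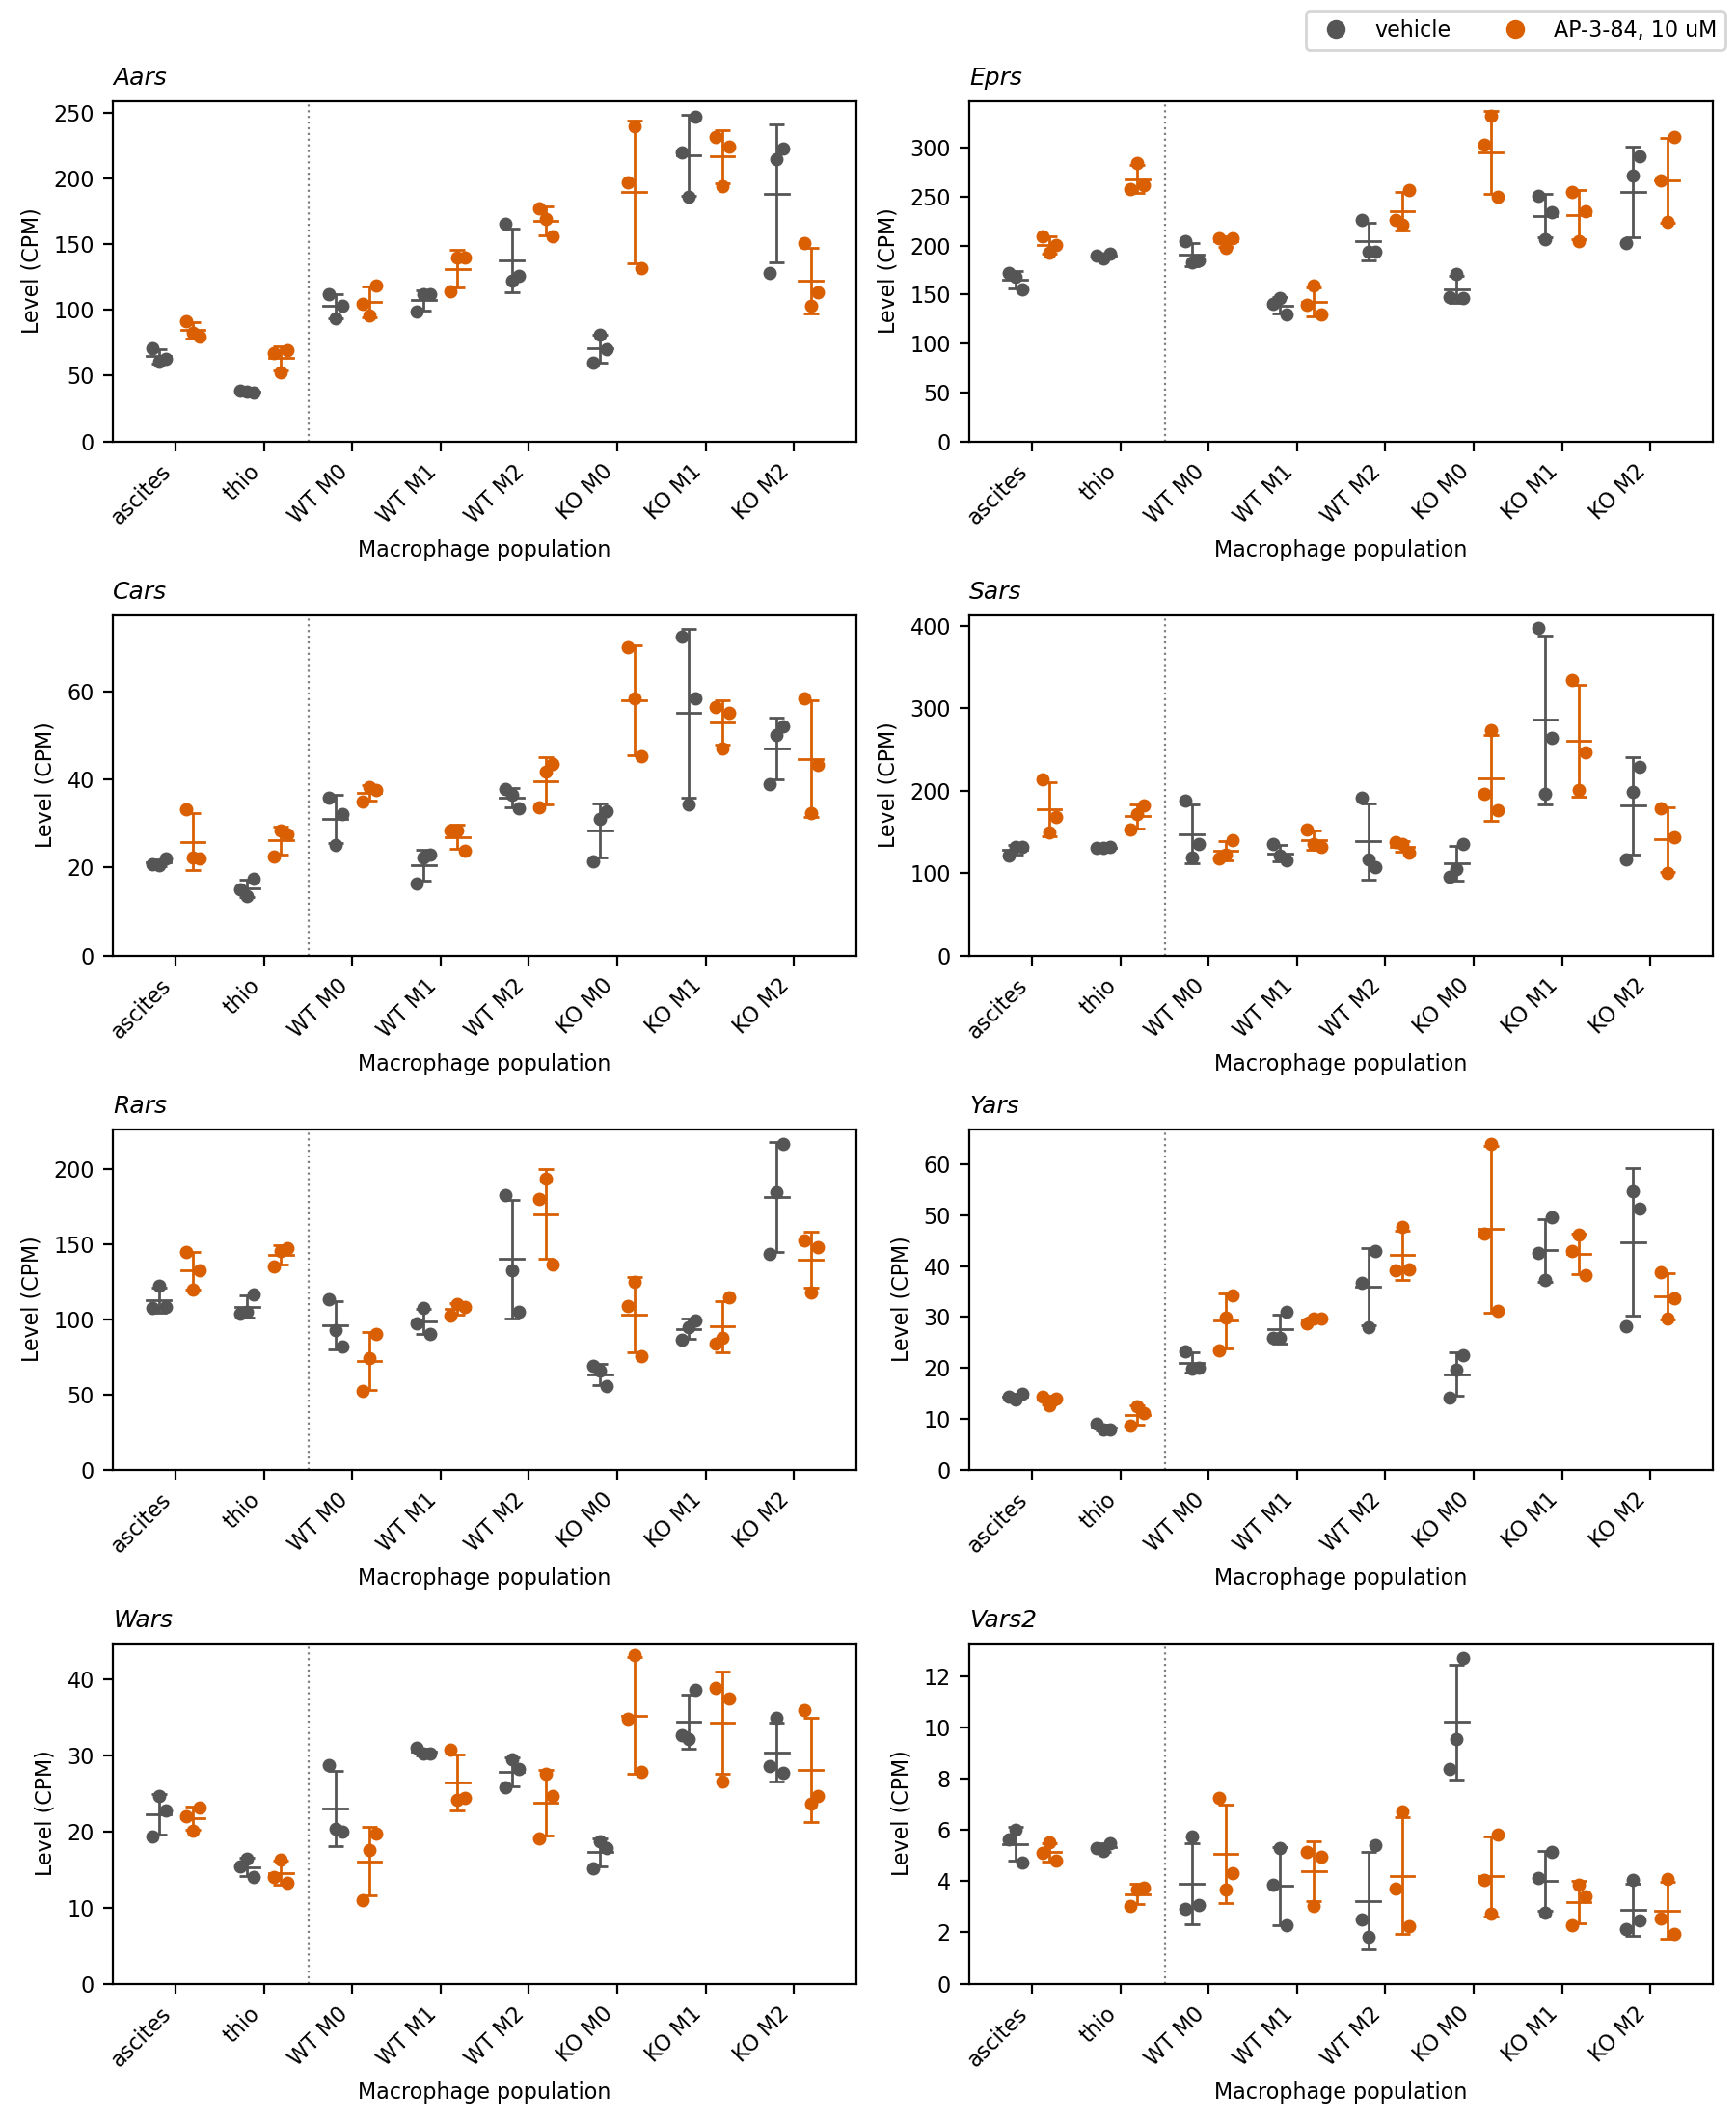
CPM (vertical axes, one panel a gene) of Aars, Eprs, Cars, Sars, Rars, Yars, Wars and Vars2 in each library of the 16 groups (horizontal axis), grey for vehicle and orange for AP-3-84, with the mean as a line and the SD as a bar (n = 3); the dotted line divides the peritoneal from the bone marrow-derived libraries. In KO M0 cells Aars goes from 60.3 to 81.6 CPM with vehicle to 132 to 239.8 CPM with AP-3-84, and Vars2 from 8.39 to 12.7 CPM down to 2.71 to 5.82.

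By place in the cell, 5 of the 8 complex members rose in KO M0 (median 0.76) and 10 of the 12 cytosolic synthetases outside it (median 0.96). The complex members that were not called were Dars, Kars and Qars, the aspartyl, lysyl and glutaminyl enzymes, and Farsa and Nars were the others. Of the 12 genes listed as ATF4 targets 11 rose (median 0.98), and of the other 8 cytosolic genes 4 did (median 0.51). That list was chosen with earlier results of these data known. By fold of the catalytic domain, 8 of 9 class I enzymes rose (median 0.98) and 6 of 10 class II enzymes (median 0.60). Eprs, which carries one domain of each class, was counted in neither. The difference between these sublists was not tested. Of 11 tested scaffold and accessory genes 1 rose and 1 fell, where 12.1% of all genes rose and 8.57% fell. Eef1e1, a small scaffold protein of the complex, rose by 1.46 ± 0.41 (SE, adjusted p = 0.011). Prorsd1, which resembles an editing domain, fell, with a log2 fold change of -0.61 ± 0.20 (SE, adjusted p = 0.028).

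Of the mitochondrial synthetases in KO M0 cells none was called higher. Of 17 genes 2 fell, where 8.57% of all genes fell, and the median was -0.24. Vars2 was at 8.39, 9.54 and 12.7 CPM with vehicle and at 4.04, 2.71 and 5.82 with AP-3-84, a log2 fold change of -1.28 ± 0.43 (SE, adjusted p = 0.032). Hars2, the mitochondrial histidyl enzyme, was at 16.2, 17.5 and 16.2 CPM with vehicle and 9.60, 10.1 and 10.6 with AP-3-84, a change of -0.72 ± 0.25 (SE, adjusted p = 0.034). Neither had overlapping libraries, yet both calls are near the threshold and rest on few counts. Vars2 lost its call without vehicle replicate 2 (adjusted p = 0.057) or 3 (0.13) or AP-3-84 replicate 1 (0.099) or 2 (0.18), and Hars2 without any 1 of 5 of the 6 libraries (0.068 to 0.12). Hars and Hars2 lie head to head on opposite strands.

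Of the 17 calls in KO M0 cells, 10 were left without AP-3-84 replicate 1 or without AP-3-84 replicate 2. Aars, Yars, Gars, Eprs, Lars, Wars, Mars and Cars kept their calls under each alternative that used the KO M0 vehicle libraries, and Sars lost its call without vehicle replicate 1 (adjusted p = 0.055) or AP-3-84 replicate 2 (0.11). Rars, Vars, Iars, Hars and Farsb each lost the call in at least 2 of the fits without 1 library, at adjusted p = 0.057 to 0.18.

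A comparison chosen after seeing the data left the KO M0 vehicle libraries out, and set KO M0 against WT M0 with AP-3-84 in both. There 7 of 20 cytosolic synthetases were higher in KO, where 6.97% of all genes were. Qars was lower, at a log2 value of -0.41, where 4.79% of all genes were. Wars differed by 1.13 ± 0.22 (SE, adjusted p = 0.00063), Aars by 0.84 ± 0.19 (0.0039) and Gars by 0.77 ± 0.19 (0.0064). The others were Yars, Farsb, Lars and Eprs, and the cytosolic median was 0.52. The levels of KO M0 cells with AP-3-84 were thus high for these 7 genes against the treated WT cells as well. This sets genotypes against each other and is not a response to the compound. Of the mitochondrial genes edgeR called 0, with 1 at an unadjusted p under 0.05, and DESeq2 was not run on this comparison.

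In the remaining 5 populations no synthetase was called by edgeR with AP-3-84, and none by DESeq2. In WT M0 cells 0.144% of all genes were called, and Wars and Pars2 had an unadjusted p under 0.05. The cytosolic median was -0.10 and the mitochondrial -0.20. In WT M1 cells 0.0170% of all genes were called, and Tars and Sars2 had an unadjusted p under 0.05, with medians of 0.03 and -0.02. In WT M2 cells 1.21% were called, Gars and Mars had an unadjusted p under 0.05, and the medians were 0.20 and 0.09. Total-count scaling moved the share of calls that were higher in WT M2 from 19.0% to 33.1% and the median of all genes to 0.11, and still no synthetase was called. In KO M1 cells 0% of the genes were called (206 at an unadjusted p under 0.05), 0 synthetases had an unadjusted p under 0.05, and the medians were 0.00 and -0.08. In KO M2 cells 0.0509% were called and the medians were -0.22 and -0.36. Iars, Gars, Vars, Aars, Sars2 and Tars2 had an unadjusted p under 0.05 there, all on the lower side. Aars was at 128, 215 and 223 CPM with vehicle and 151, 103 and 114 with AP-3-84 in KO M2, a log2 value of -0.63 ± 0.19 (SE, adjusted p = 0.18). The first vehicle library lay with the treated ones and the other 2 were higher. Without it, 2 genes were called lower, Aars at -0.84 (adjusted p = 0.011) and Tars2 at -1.26 (0.038).

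Since calls in one population and not in another show no difference by themselves, the differences of responses were tested. The response of KO M0 exceeded that of WT M0 for 13 of 20 cytosolic synthetases, where it did so for 10.0% of all genes, with a median difference of 0.91. The largest was for Wars, at 1.55 ± 0.31 (SE, adjusted p = 0.00094). Aars followed at 1.38 ± 0.27 (SE, adjusted p = 0.00097), and Lars had 1.11 ± 0.21 (SE, adjusted p = 0.00063). Sars, Vars, Rars, Tars, Gars, Hars, Iars, Mars, Eprs and Farsb made up the rest. Yars (0.86 ± 0.33, SE, adjusted p = 0.068) and Cars (0.78 ± 0.32, SE, adjusted p = 0.088), both called in KO M0 itself, missed the threshold for the difference. No mitochondrial gene was called (edgeR 0 of 17, 2 at an unadjusted p under 0.05, DESeq2 1). This difference rests on the KO M0 vehicle libraries, and no estimate of it can be made without them. It fell to 8 genes without KO M0 AP-3-84 replicate 2. Sars, Vars, Iars, Mars and Farsb each lost the call in at least 2 of the fits without 1 library, at adjusted p = 0.052 to 0.16.

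Between KO and WT in M1 no synthetase was called for the difference of responses, where 0.00849% of all genes were (edgeR 0, 1 gene at an unadjusted p under 0.05, DESeq2 0). Between KO and WT in M2 none was called either, where 1.77% were (edgeR 0, 9 cytosolic and 1 mitochondrial gene at an unadjusted p under 0.05 and all on the lower side, DESeq2 0). Without KO M2 vehicle replicate 1 there were 4 calls, without WT M2 vehicle replicate 1 there were 2, and without KO M2 AP-3-84 replicate 1 there was 1. Scaled by total counts, the share of all calls that were higher went from 61.1% to 36.1%, with the median of all genes at -0.15, and 1 synthetase, Aars, was called lower.

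Averaged over both genotypes, the response was lower in M2 than in M0 for 2 of 37 synthetases, and for 1.63% of all genes. The 2 synthetases were Yars, at -0.99 ± 0.23 (SE, adjusted p = 0.017), and Aars, at -0.91 ± 0.19 (SE, adjusted p = 0.0095). Without KO M0 AP-3-84 replicate 2 there was 1 such call, and without KO M0 AP-3-84 replicate 3 there were 5. The response in M1 against M0 gave no call, where 0.492% of all genes were called (edgeR 0, 7 cytosolic and 1 mitochondrial gene at an unadjusted p under 0.05, DESeq2 1, Yars). Without KO M0 AP-3-84 replicate 3 there were 3. Both contrasts hold the KO M0 vehicle libraries.

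Wars was followed in all 16 groups because it is the interferon-inducible member. In peritoneal cells it was at 19.4, 24.7 and 22.7 CPM in ascites vehicle and 22.0, 20.1 and 23.1 in ascites AP-3-84 libraries. It was at 15.4, 16.5 and 14.1 in thioglycollate vehicle and 14.0, 16.3 and 13.3 in thioglycollate AP-3-84 libraries. Treated and vehicle libraries overlapped in both, and ascites was above thioglycollate with no overlap. Among vehicle libraries of WT cells it was at 28.7, 20.3 and 19.9 in M0, 31.0, 30.2 and 30.2 in M1 and 25.9, 29.6 and 28.2 CPM in M2. With AP-3-84 the WT values were 11.0, 17.6 and 19.7 in M0, 30.7, 24.2 and 24.5 in M1 and 19.1, 27.6 and 24.7 in M2. The first WT M0 vehicle library was near the M1 level, and M1 against M0 gave a log2 value of 0.40 ± 0.21 (SE, adjusted p = 0.21). Among vehicle libraries of KO cells Wars was at 15.2, 18.8 and 17.9 in M0, 32.7, 32.1 and 38.6 in M1 and 28.7, 34.9 and 27.8 CPM in M2. With AP-3-84 the KO values were 34.9, 43.2 and 27.8 in M0, 38.9, 26.6 and 37.5 in M1 and 35.99, 23.6 and 24.7 in M2. In KO cells the M0 vehicle libraries were below all other KO libraries, and the M0 libraries with AP-3-84 reached the M1 range. AP-3-84 changed it in KO M0 by 1.03 ± 0.22 (SE, adjusted p = 0.00092). In the same comparison 3 of 7 interferon-γ response genes rose, Tap1 and Cxcl10 among them, where 12.1% of all genes rose. Nos2, a gene of M1 cells, was at 3.87, 4.77 and 1.51 CPM in WT M1 and 10.2, 17.7 and 8.70 in KO M1 vehicle libraries, while it was at 0 to 0.767 CPM in the M0 vehicle libraries. In M2 vehicle libraries it was at 5.01, 1.51 and 0.317 CPM in WT and 3.98, 1.58 and 4.22 in KO. WT M1 and WT M2 thus overlapped in Nos2, while KO M1 was above KO M2.

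The synthetases were read beside the stress response they belong to. A list of 30 integrated stress response genes without synthetases had 28 tested members in peritoneal and 27 in bone marrow-derived libraries. In KO M0 cells 14 of 27 rose with AP-3-84, where 12.1% of all genes rose, and 1, Cebpg, fell, where 8.57% did (median 1.07). In thioglycollate macrophages 14 of 28 rose, where 2.51% of all genes did (median 0.56). In ascites macrophages 5 of 28 rose, where 1.69% did (Atf4, Slc7a11, Ppp1r15a, Trib3 and Atf3, median 0.29). In the other 5 populations edgeR called 0 of 27, with 5, 6, 4, 0 and 8 genes at an unadjusted p under 0.05 in WT M0, WT M1, WT M2, KO M1 and KO M2. Of all genes 0.144%, 0.0170%, 1.21%, 0% and 0.0509% were called there. The 3 populations with synthetase calls were those with calls in this list. They also had the most calls over all genes, 733 in thioglycollate, 303 in ascites and 2440 in KO M0 cells. The match is therefore not shown to be particular to these 2 sets of genes. Atf4 was at 154, 147 and 148 CPM with vehicle and 229, 247 and 245 with AP-3-84 in thioglycollate cells, a log2 fold change of 0.68 ± 0.09 (SE, adjusted p = 0.00011). In KO M0 cells it was at 118, 135 and 163 CPM with vehicle and 276, 380.4 and 199 with AP-3-84, a change of 1.04 ± 0.19 (SE, adjusted p = 0.00020), and in ascites cells its change was 0.44 ± 0.08 (SE, adjusted p = 0.0078). None of these 3 had overlapping libraries. Its log2 values in WT M0, WT M1, WT M2 and KO M1 were 0.15, 0.22, 0.14 and -0.04, none of them called.

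Asns, asparagine synthetase, was at 0.319, 0.850 and 1.30 CPM with vehicle and 6.52, 4.48 and 5.69 with AP-3-84 in thioglycollate cells, a log2 fold change of 2.72 ± 0.33 (SE, adjusted p = 8.3e-05). In KO M0 cells it was at 12.3, 9.54 and 15.7 CPM with vehicle and 67.2, 103 and 42.4 with AP-3-84, a change of 2.49 ± 0.36 (SE, adjusted p = 1.8e-05). Its rise was thus larger in log2 terms than that of any synthetase in the same populations. Trib3, a pseudokinase, rose by 2.14 ± 0.24 (SE, adjusted p = 3.7e-05) in thioglycollate, 3.00 ± 0.61 (SE, adjusted p = 0.00094) in KO M0 and 1.09 ± 0.22 (SE, adjusted p = 0.0096) in ascites cells. Ddit3, a transcription factor made under prolonged stress, rose by 0.62 ± 0.13 (SE, adjusted p = 0.017) in thioglycollate and 1.07 ± 0.36 (SE, adjusted p = 0.033) in KO M0 cells, with a log2 value of 0.54 ± 0.13 (SE, adjusted p = 0.058) in ascites. Chac1 (3.39 ± 0.69, SE, adjusted p = 0.00073) and Psat1 (1.45 ± 0.38, SE, adjusted p = 0.0076), a serine synthesis enzyme, rose in KO M0 cells. Neither was called in thioglycollate (1.78 and 0.40) or ascites cells (-0.13 and 0.09). In WT M1 cells, where no synthetase was called, Trib3 was at 3.58, 3.71 and 2.27 CPM with vehicle and 19.9, 12.9 and 17.9 with AP-3-84. Ddit3 was at 31.9, 39.7 and 48.1 CPM with vehicle and 95.4, 81.4 and 114 with AP-3-84 there. Neither overlapped, and neither passed the test, at 2.39 ± 0.60 (SE, adjusted p = 0.21) and 1.28 ± 0.35 (SE, adjusted p = 0.30). In KO M2 cells the log2 values of Atf4, Ddit3, Trib3, Asns, Chac1 and Psat1 were negative, from -1.52 for Trib3 to -0.12 for Atf4, and none was called. Of the 4 kinases of eIF2α, Eif2ak2 (PKR) rose by 0.73 and Eif2ak4 (GCN2) fell, with a log2 fold change of -0.66, in KO M0 cells, and 0 of 4 were called in the 2 peritoneal populations.

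The vehicle libraries answer a second question, how synthetase levels differ between macrophage populations without the compound. The comparisons with KO M0 and with WT M0 each share their 3 vehicle libraries.

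**Figure D4:**
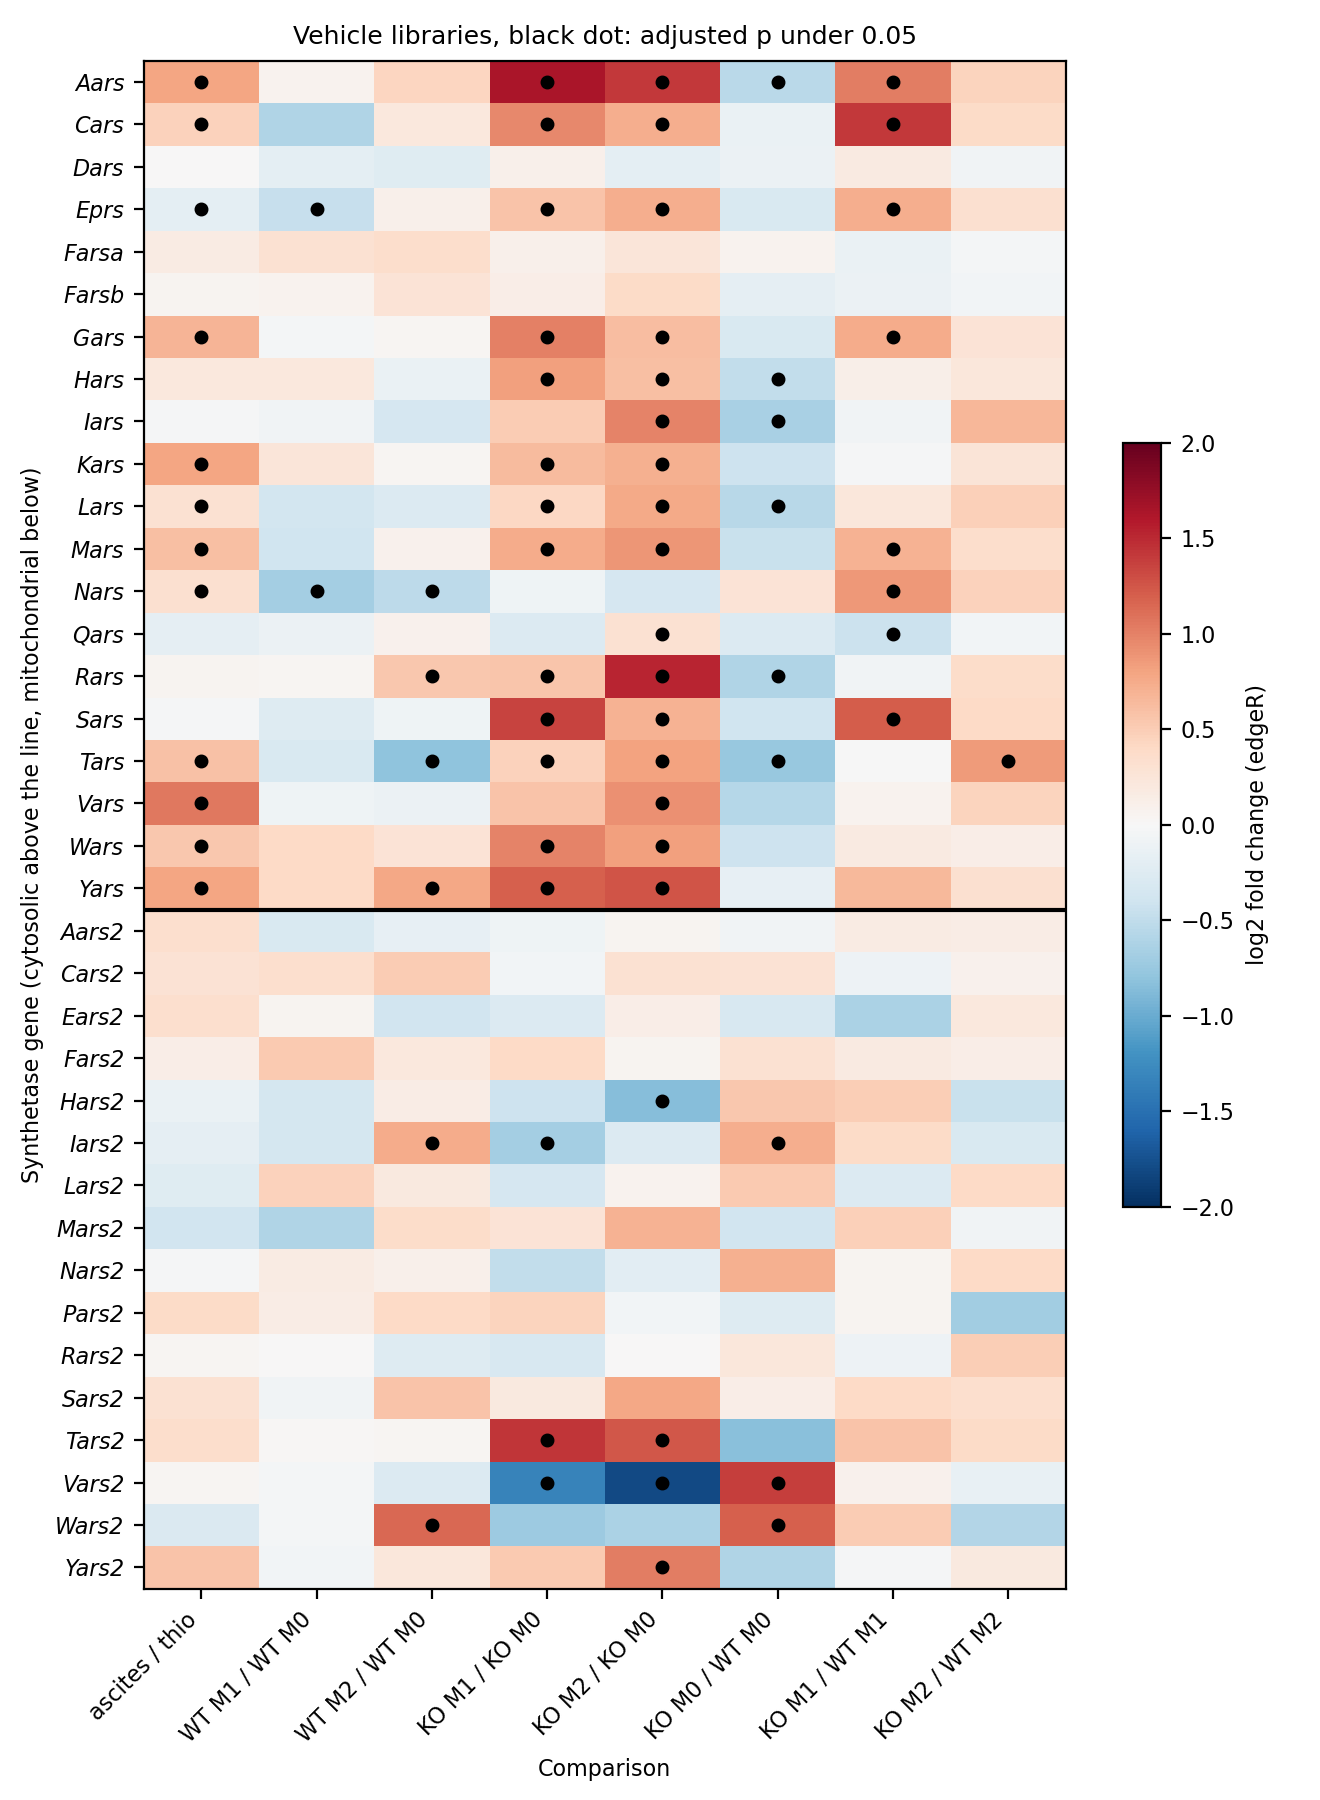
Log2 fold change (colour, from -2 to 2) of 36 of the 37 synthetase genes (vertical axis) in 8 comparisons between vehicle groups (horizontal axis), with the cytosolic genes above the line, the mitochondrial genes below it, and a black dot where the adjusted p is under 0.05. The columns of KO M1 and KO M2 against KO M0 hold 13 and 16 cytosolic genes that are higher, and that of KO M0 against WT M0 holds 6 that are lower.

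Ascites macrophages had higher levels than thioglycollate macrophages of 11 of 20 cytosolic synthetases, where 20.3% of all genes were higher. The level of 1 of 20 was lower, where 13.4% of all genes were lower. Vars, the valyl enzyme, was at 12.5, 14.8 and 16.4 CPM in ascites and 7.28, 8.56 and 5.21 in thioglycollate cells, a log2 fold change of 1.06 ± 0.27 (SE, adjusted p = 0.0062). Kars was at 47.7, 51.2 and 53.2 CPM in ascites and 28.5, 28.5 and 30.6 in thioglycollate, a change of 0.79 ± 0.09 (SE, adjusted p = 1.0e-06). Neither gene's libraries overlapped between the populations. The others that were higher were Yars (0.79), Aars (0.78), Gars (0.69), Mars (0.60), Tars (0.59), Wars (0.54), Cars (0.46), Nars (0.31) and Lars (0.31). Eprs was lower, at 172, 168 and 155 CPM in ascites against 190.0, 186 and 192 in thioglycollate, a change of -0.20 ± 0.06 (SE, adjusted p = 0.019). By place, 8 of 12 genes outside the complex were higher, and of the 8 complex members 3 were higher and 1 lower. No mitochondrial synthetase was called (edgeR 0, 3 at an unadjusted p under 0.05, DESeq2 0). In the same comparison 18 of 28 integrated stress response genes were higher and 3 lower, and 7 of 7 interferon-γ response genes were higher, with a median of 3.16. Summed epithelial, mesothelial and ID8 markers were at 210 to 247 CPM in ascites and 2.55 to 4.66 CPM in thioglycollate vehicle libraries, and their part in these values was not tested. With scaling by total counts, 14 synthetases were higher and 0 lower, the share of all calls that were higher went from 60.3% to 70.3%, and the median of all genes from 0.05 to 0.14, so the lower Eprs depends on the scaling. Eprs also lost its call without ascites replicate 3 (adjusted p = 0.11) or thioglycollate replicate 1 (0.055) or 3 (0.067). Cars lost its call in 5 of the 6 fits without 1 library (0.052 to 0.12), with median-ratio size factors (0.052) and with DESeq2 (0.056).

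In WT cells 2 of 20 cytosolic synthetases were lower in M1 than in M0, where 7.49% of all genes were lower. Over all 37 synthetases the share was below that of all genes. Nars was at 119.5, 126 and 124 CPM in M1 and 199.7, 184 and 203 in M0, a log2 fold change of -0.67 ± 0.18 (SE, adjusted p = 0.0094). Eprs was at 141, 146 and 130.2 CPM in WT M1 and 205, 183 and 185 in WT M0, a change of -0.46 ± 0.14 (SE, adjusted p = 0.025). Neither gene's libraries overlapped. In the same comparison 4 of 7 interferon-γ response genes were higher, where 8.01% of all genes were, and of the integrated stress response list 3 were higher and 6 lower, Atf4 among the lower. When libraries were scaled by total counts, 8 synthetases were lower and 0 higher, as the share of all calls that were higher went from 51.7% to 16.9% and the median of all genes to -0.30. Without WT M0 vehicle replicate 1 or 3, or WT M1 vehicle replicate 1 or 3, 1 call was left.

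In WT cells 4 of 37 synthetases were higher in M2 than in M0, where 12.7% of all genes were higher. Another 2 of 37 were lower, where 10.7% of all genes were. Neither share of the 37 was above that of all genes. Wars2, the mitochondrial tryptophanyl enzyme, was at 5.84, 7.24 and 6.65 CPM in M2 and 2.92, 2.63 and 3.32 in M0, a log2 fold change of 1.15 ± 0.36 (SE, adjusted p = 0.019). Yars was at 36.7, 28.0 and 43.1 CPM in WT M2 and 23.3, 19.8 and 19.9 in WT M0, a change of 0.77 ± 0.23 (SE, adjusted p = 0.015). Iars2 (0.75), the mitochondrial isoleucyl enzyme, and Rars (0.55) were the other genes that were higher. Tars was lower, at 47.6, 44.0 and 33.2 CPM in M2 against 88.2, 69.3 and 61.6 in M0, a change of -0.81 ± 0.18 (SE, adjusted p = 0.0014). Nars was at 173, 107 and 130.1 CPM in WT M2 and 199.7, 184 and 203 in WT M0, a change of -0.52 ± 0.18 (SE, adjusted p = 0.034). In none of these 4 genes given by library did the groups overlap. Scaled by total counts, 1 synthetase was higher and 3 were lower, with the share of all calls that were higher going from 54.2% to 30.7% and the median of all genes at -0.20. Of the 6 calls 2 were left without WT M0 vehicle replicate 2, and 3 without WT M0 vehicle replicate 3 or without WT M2 vehicle replicate 2. Rars went to 0.30 (adjusted p = 0.34) without WT M2 vehicle replicate 1, and was also lost without WT M0 vehicle replicate 2 (0.13) or 3 (0.18) or WT M2 vehicle replicate 2 (0.067). Wars2, Yars and Nars were each lost in at least 3 of the fits without 1 library (0.051 to 0.20).

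In KO cells 13 of 20 cytosolic synthetases were higher in M1 than in M0, where 22.8% of all genes were higher. Of 17 mitochondrial genes 1, Tars2, was higher and 2 were lower, where 21.8% of all genes were lower. Neither mitochondrial share was above that of all genes. Aars was at 220.0, 186 and 248 CPM in KO M1 and 60.3, 81.6 and 70.1 in KO M0, a log2 fold change of 1.63 ± 0.20 (SE, adjusted p = 1.5e-07). Tars2, the mitochondrial threonyl enzyme, was at 21.2, 11.4 and 13.4 CPM in KO M1 and 6.29, 5.85 and 4.87 in KO M0, a change of 1.42 ± 0.35 (SE, adjusted p = 0.0013). Vars2 was lower, at 4.12, 2.78 and 5.13 CPM in KO M1 and 8.39, 9.54 and 12.7 in KO M0 (-1.34 ± 0.43, SE, adjusted p = 0.012), as was Iars2, at 30.2, 26.3 and 30.8 CPM in KO M1 and 39.6, 56.9 and 43.8 in KO M0 (-0.68 ± 0.19, SE, adjusted p = 0.0047). None of these overlapped. In M2, 16 of 20 cytosolic synthetases were higher than in KO M0, where 20.1% of all genes were higher. Of 17 mitochondrial genes 3 were higher, Tars2 and Yars2 among them, and 2 were lower, where 18.0% of all genes were lower. Here too neither mitochondrial share was above that of all genes. Rars was at 143, 184 and 217 CPM in KO M2, against 69.2, 65.6 and 55.4 in KO M0, a change of 1.52 ± 0.21 (SE, adjusted p = 1.1e-06). Aars was at 128, 215 and 223 CPM in KO M2, a change of 1.42 ± 0.20 (SE, adjusted p = 1.3e-06). The first KO M2 library was the lowest of its group for both genes and still above KO M0. Vars2 was at 2.12, 4.05 and 2.48 CPM in KO M2 (-1.80 ± 0.44, SE, adjusted p = 0.0018) and Hars2 at 10.9, 9.01 and 7.94 (-0.85 ± 0.25, SE, adjusted p = 0.0074), both lower than in KO M0 with no overlap. The integrated stress response list moved too, with 16 of 27 genes higher and 1 lower in M1, and 19 higher in M2. Of the 21 calls in M2, 13 were left without KO M2 vehicle replicate 2. In M1, Tars went from 0.46 to 0.28 (adjusted p = 0.24) without KO M0 vehicle replicate 3. Summed macrophage markers were at 32034 to 38699 CPM in KO M0, 15360.0 to 24480.0 in KO M1 and 5674 to 18187 in KO M2 vehicle libraries. For neutrophil markers the sums were 513 to 636 CPM in KO M0, 958 to 2350.0 in KO M1 and 316 to 3026 in KO M2. The part of either in these values was not tested.

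Both KO comparisons rest on the KO M0 vehicle libraries. Among libraries with AP-3-84, a comparison chosen after seeing the data, KO M1 against KO M0 gave 0 cytosolic calls by edgeR (3 at an unadjusted p under 0.05, DESeq2 not run) and a cytosolic median of -0.15. Of all 11779 genes tested there, 10.7% were called higher, and 1434 genes were called lower. KO M2 against KO M0 with AP-3-84 had 12.4% of all genes lower and, near that share, 3 of 20 cytosolic genes lower and none higher. They were Gars at -0.85 ± 0.19 (SE, adjusted p = 0.00097), Aars at -0.63 ± 0.19 (0.014) and Vars at -0.77 ± 0.28 (0.041). The higher cytosolic synthetases of polarized KO cells were thus seen among vehicle libraries and not among libraries with AP-3-84. This replaces the libraries of both groups, and the cytosolic synthetases of KO M0 had themselves risen with AP-3-84, so it does not give the part of the KO M0 vehicle libraries alone, which was not tested.

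Between genotypes, KO M0 cells had lower levels of 6 of 20 cytosolic synthetases than WT M0 cells, where 16.8% of all genes were lower. Levels of 3 of 17 mitochondrial ones were higher, a share near the 16.4% of all genes that were higher. Tars was at 52.7, 45.6 and 30.8 CPM in KO and 88.2, 69.3 and 61.6 in WT M0, a log2 fold change of -0.76 ± 0.18 (SE, adjusted p = 0.0017). Iars was at 25.7, 13.5 and 18.4 CPM in KO M0 and 38.6, 26.5 and 25.8 in WT M0, a change of -0.65 ± 0.23 (SE, adjusted p = 0.031). The KO libraries were below the WT libraries for both, by a small gap. Rars (-0.60), Lars (-0.56), Aars (-0.54) and Hars (-0.49) were also lower. Vars2 was at 8.39, 9.54 and 12.7 CPM in KO and 2.92, 5.74 and 3.07 in WT M0, a change of 1.38 ± 0.43 (SE, adjusted p = 0.014). Wars2 was at 6.55, 7.70 and 6.22 CPM in KO M0 and 2.92, 2.63 and 3.32 in WT M0, a change of 1.20 ± 0.36 (SE, adjusted p = 0.0097), and Iars2 was higher by 0.72. Here the KO libraries were above the WT libraries without overlap. Of the 9 calls, 4 were left without WT M0 vehicle replicate 1 or without KO M0 vehicle replicate 3. Rars, Aars, Hars, Iars and Vars2 were each lost in at least 2 of the fits without 1 library, at adjusted p = 0.052 to 0.21. With AP-3-84 in both genotypes, which replaces the libraries of both groups, 7 of the 8 cytosolic genes that differed were higher in KO M0.

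In M1 cells 7 of 20 cytosolic synthetases were higher in KO than in WT, where 5.93% of all genes were higher. Another 1 of 20 was lower, near the share of all genes that were lower, 5.71%. This comparison does not use the KO M0 libraries. Cars was at 72.5, 34.4 and 58.5 CPM in KO and 16.4, 22.3 and 22.9 in WT M1, a log2 fold change of 1.42 ± 0.23 (SE, adjusted p = 0.00015). Sars was at 398, 196 and 265 CPM in KO M1 and 135, 121 and 116 in WT M1, a change of 1.21 ± 0.26 (SE, adjusted p = 0.0034). For both the second KO library was the lowest of its group and still above WT. Aars (1.02), Nars (0.87), Gars (0.74), Eprs (0.73) and Mars (0.70) were the other genes that were higher, and all 7 stand on the list of ATF4 targets. Qars was lower, at 55.2, 63.0 and 71.2 CPM in KO M1 against 82.0, 84.3 and 89.6 in WT M1, a change of -0.43 ± 0.12 (SE, adjusted p = 0.018). In the same comparison 14 of 27 integrated stress response genes were higher, Atf4 among them at 440.3, 287 and 351 CPM in KO and 103, 115 and 115 in WT M1. Summed macrophage markers were at 15360.0 to 24480.0 CPM in KO M1 and 42725 to 45685 in WT M1 vehicle libraries. Summed neutrophil markers were at 958 to 2350.0 in KO M1 and 426 to 556 in WT M1, and the part of either in these values was not tested. Under scaling by total counts, 11 synthetases were higher and 0 lower, with the share of all calls that were higher going from 50.9% to 89.0% and the median of all genes at 0.27, so the lower Qars depends on the scaling. Mars went to 0.46 (adjusted p = 0.16) without KO M1 vehicle replicate 3, and was also lost without WT M1 vehicle replicate 1 (0.095) or 2 (0.055). Gars was lost without WT M1 vehicle replicate 1 (0.068) or KO M1 vehicle replicate 3 (0.085), and Qars without WT M1 vehicle replicate 2 (0.054) or 3 (0.083) or KO M1 vehicle replicate 1 (0.11).

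In M2 cells 1 of 37 synthetases was higher in KO than in WT, where 1.21% of all genes were higher. Tars was at 74.0, 67.6 and 84.8 CPM in KO and 47.6, 44.0 and 33.2 in WT M2, a log2 fold change of 0.86 ± 0.18 (SE, adjusted p = 0.0068), with no overlap. The call was lost without WT M2 vehicle replicate 3 or without KO M2 vehicle replicate 3, and without KO M2 vehicle replicate 1 there were 5 calls. Scaled by total counts there were 6 higher and 0 lower, the share of all calls that were higher went from 34.1% to 76.6%, and the median of all genes was at 0.19. Summed macrophage markers were at 5674 to 18187 CPM in KO M2 and 24704 to 30690.0 in WT M2 vehicle libraries. Summed neutrophil markers were at 316 to 3026 CPM in KO M2 and 410 to 3716 in WT M2 vehicle libraries. The part of either in these values was not tested.

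Libraries within the M2 groups differed in M2 genes and in synthetases. In KO M2 vehicle libraries the cytosolic sum was 1630.2, 2176 and 2239.7 CPM, and Retnla, an M2 gene, was at 5858, 455 and 406 CPM. In WT M2 vehicle libraries the sum was 1848, 1501 and 1556 and Retnla 456, 4299 and 2661 CPM. In both groups the library or libraries with the highest Retnla had the lowest cytosolic sum. With AP-3-84 the KO M2 sums were 1900.5, 1499 and 1854 with Retnla at 2664, 7902 and 2569, and again the library with the highest Retnla had the lowest sum. The WT M2 sums with AP-3-84 were 1833 to 1840.0, with Retnla at 935, 1485 and 1038, and were nearly equal. Arg1, another M2 gene, ran the other way. It was at 1102, 2815.5 and 2340.1 CPM in KO M2 vehicle and 2240.0, 1003 and 1140 in WT M2 vehicle libraries. With AP-3-84 it was at 1658, 689 and 1324 in KO M2. In each of these groups the library with the lowest Arg1 had the lowest sum, so the 2 M2 genes disagree. In WT M2 vehicle libraries Marco was at 1089, 130.3 and 83.6 CPM, Saa3, an acute-phase gene, at 3421, 201 and 174 and Il1b, a cytokine gene, at 240.1, 84.1 and 46.5, so library 1 was highest in all 3 and lowest in Retnla. Without it, 5 synthetases were called for WT M2 against WT M0, 1 for KO M2 against WT M2 and 0 for AP-3-84 in WT M2. The cause was not tested, and this is a description of 12 libraries that share a culture protocol.

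**Figure D5:**
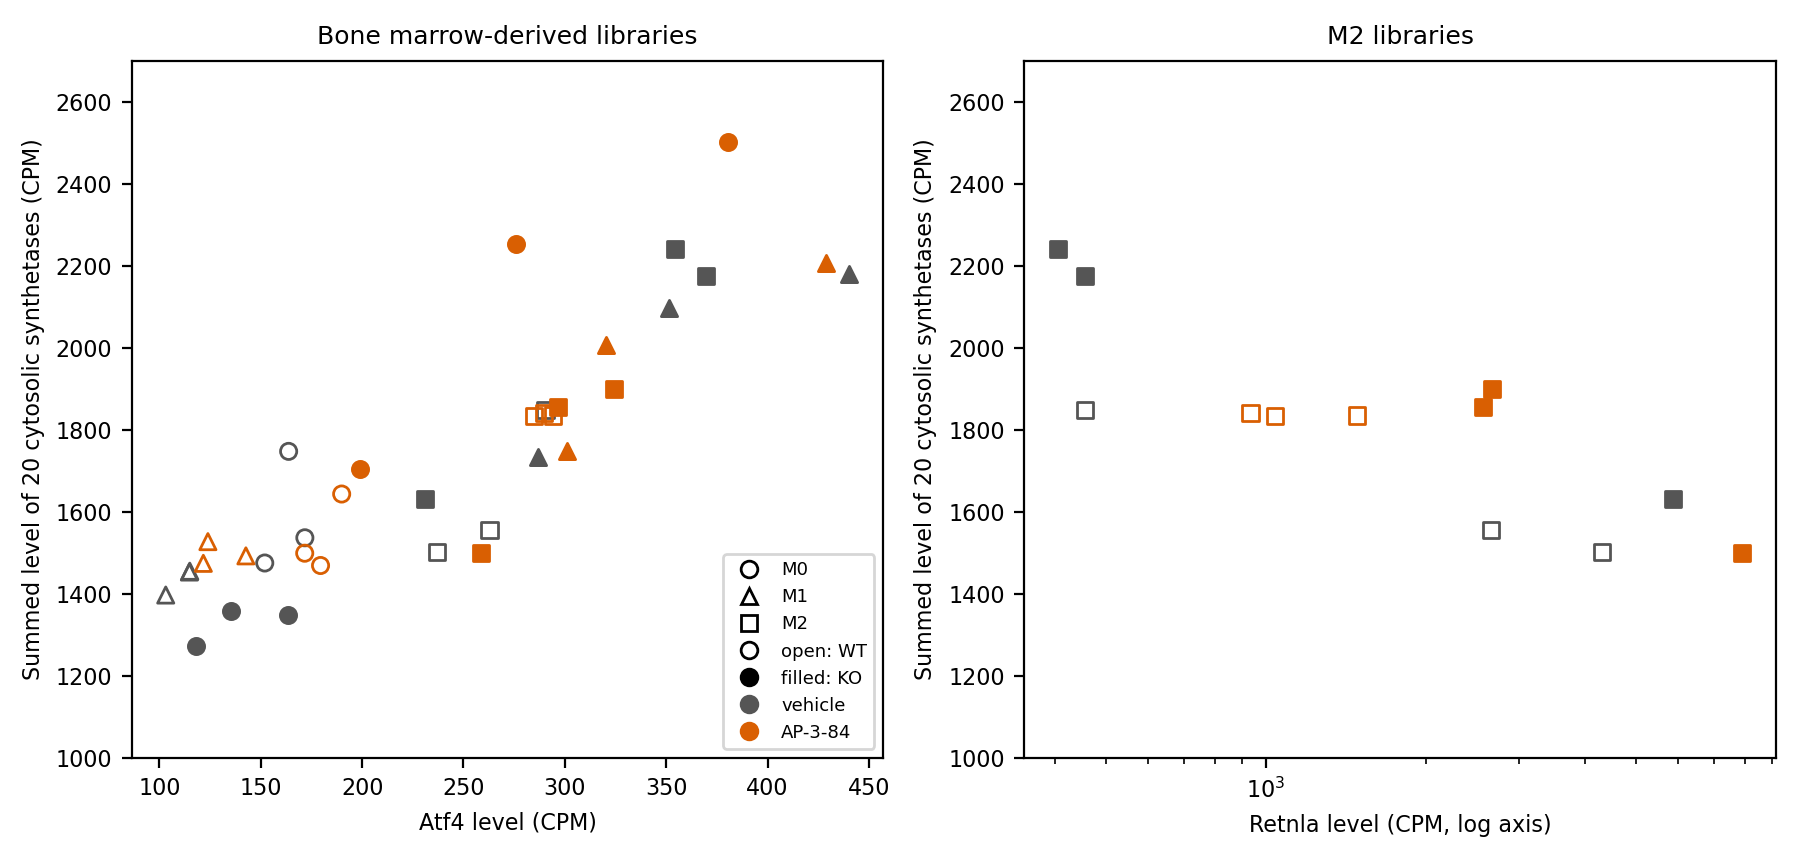
Summed CPM of the 20 cytosolic synthetase genes (vertical axes) against Atf4 CPM in the 36 bone marrow-derived libraries (left) and against Retnla CPM on a log axis in the 12 M2 libraries (right); open symbols are WT and filled symbols KO, with circles for M0, triangles for M1 and squares for M2. KO M2 vehicle library 1 has Retnla at 5858 CPM and a sum of 1630.2, while libraries 2 and 3 have Retnla at 455 and 406 CPM and sums of 2176 and 2239.7. Arg1, another M2 gene that is not drawn, runs the other way in these libraries, at 1102, 2815.5 and 2340.1 CPM.

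Some members share reads or positions with other genes. Aars and Exosc6, a subunit of the RNA exosome, overlap on the same strand, and 17.1% of the 50-base stretches in the last 500 bases of Aars are also in Exosc6. With the counts of both genes added, a check chosen after seeing the data, the log2 fold change with AP-3-84 was 0.52 (adjusted p = 0.0020) in thioglycollate and 1.29 (1.5e-05) in KO M0 cells, and no call of Aars was lost. The 3′ ends of Mars and Ddit3 lie on opposite strands, and the counting by strand is not given in the sources used here, so their reads may not be told apart. Iars shares 8.56% of such stretches with Gm4849.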

How the data were processed

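Counts per gene in 48 libraries of QuantSeq FWD 3′ tags (75-base single reads from 100 ng RNA, per the labels' protocols) were used as deposited. They are whole numbers, and RSEM, Bowtie2 and DESeq2 are named in the submitters' processing notes, so the deposited counts may be rounded estimates. Genome build, annotation and strand setting: not given in the sources used here. Samples were grouped by title, treatment and cell type, 3 libraries in each of 16 groups.

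The synthetase genes and all gene lists were chosen with earlier results of these data known. The 12 peritoneal and 36 bone marrow-derived libraries were fitted apart over all genes in R 4.3.3 with edgeR 4.0.16, as one coefficient per group (filterByExpr by group, TMM scaling, robust quasi-likelihood test). This gave 8 comparisons of AP-3-84 with vehicle, 8 between vehicle groups and 6 differences of responses. P-values were adjusted by Benjamini-Hochberg over all genes tested, and a gene was called at an adjusted p under 0.05. The SE is the absolute log2 fold change over the square root of F. CPM use TMM-scaled library sizes within each fit, so levels are not compared between peritoneal and bone marrow-derived libraries. The depth per library was 3081707 to 19417581 counts, and genes with few counts, mostly mitochondrial synthetases, have the widest errors.

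Genes given by library are the 6 synthetases called with AP-3-84 in most populations (ties, here Vars2 among genes called in 1, by mean absolute log2 fold change), the 2 largest calls in each direction of each comparison, Wars throughout, and Atf4, Ddit3, Trib3, Asns, Chac1 and Psat1. Aars in KO M2 and ascites cells, and Nos2, Marco, Saa3, Il1b, Retnla and Arg1, were added after their values were seen. As alternatives, libraries were scaled by total counts or by median-ratio size factors, the filter was dropped, DESeq2 1.42.0 was used, only the groups compared were fitted, a replicate block was added, or 1 library was left out. No pair of replicates held identical counts, and the mean chi-square per gene between replicates was 2.51 to 38.7. The script was tested on simulated data. Promoter stretches come from the RefSeq table of GRCm38.p6. Values of some genes and a promoter stretch are not reported here.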

Additional observations from a re-analysis of the deposited data

Results flagged for a closer look

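The responses to AP-3-84 of KO and WT M0 cells differed by a test of the difference itself for 13 cytosolic synthetases (edgeR, adjusted p under 0.05), all with the larger log2 fold change in KO. The differences were 1.55 for Wars, 1.38 for Aars, 1.16 for Vars, 1.16 for Sars, 1.11 for Rars, 1.11 for Lars, 1.09 for Tars, 1.07 for Gars, 0.98 for Hars, 0.93 for Iars, 0.89 for Mars, 0.83 for Eprs and 0.83 for Farsb. All of these use the KO M0 vehicle libraries, in which Marco was at 14.3 to 17.5 CPM, and the part of that in the differences was not tested.

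The responses of M2 and M0 cells, averaged over both genotypes, differed for 2 genes, with the lower response in M2. The difference was -0.99 for Yars and -0.91 for Aars.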

How the results depend on the processing

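No called gene changed direction under the alternatives that kept the libraries compared. With AP-3-84 libraries in place of the vehicle libraries of both groups, chosen after seeing the data, the cytosolic median was 0.52 and not -0.40 for KO M0 against WT M0, -0.15 and not 0.57 for KO M1 against KO M0, and -0.35 and not 0.73 for KO M2 against KO M0. This changes treatment and reference together, and the part of the KO M0 vehicle libraries alone was not tested. Of the recomputed counts of called synthetases, 279 stayed equal to or within 1.5 times the count given and 49 did not. The 279 include counts of 0 that stayed at 0, where there was no call to lose. Of the recomputed log2 fold changes of called genes, 1265 stayed called and 226 lost the call. Leaving out 1 library at a time gave 0 to 2 calls for AP-3-84 in ascites (2 with all libraries), 3 to 5 in thioglycollate (5), 10 to 19 in KO M0 (17) and 0 to 2 in KO M2 (0). Between vehicle groups it gave 1 to 3 for WT M1 against WT M0 (2), 2 to 5 for WT M2 against WT M0 (6), 13 to 17 for KO M1 against KO M0 (16), 13 to 20 for KO M2 against KO M0 (21), 4 to 9 for KO M0 against WT M0 (9) and 0 to 5 for KO M2 against WT M2 (1). For the differences of responses it gave 8 to 17 for KO minus WT in M0 (13), 0 to 4 for KO minus WT in M2 (0), 0 to 3 for M1 minus M0 (0) and 1 to 5 for M2 minus M0 (2). Scaling by total counts gave 1 call in ascites with AP-3-84, 8 for WT M1 against WT M0, 6 for KO M2 against WT M2 and 1 for KO minus WT in M2. Fitting only the groups compared, which leaves fewer libraries to estimate the spread, gave 0 in ascites, 9 in KO M0, 3 for WT M2 against WT M0, 0 for KO M2 against WT M2 and 1 for M2 minus M0. No filter on low counts gave 1 for WT M1 against WT M0, 1 for KO minus WT in M2 and 1 for M1 minus M0. DESeq2 gave 2 for KO M2 against WT M2 and 1 for M1 minus M0. The same exchange of both groups gave 8 calls for KO M0 against WT M0, 1 for KO M1 against KO M0 and 3 for KO M2 against KO M0. The cause of these changes was not tested, and this holds for the smaller number of libraries too.

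A replicate block gave 0 calls in ascites and 3 in thioglycollate with AP-3-84 and 1 for M2 minus M0. Whether the replicate numbers pair the libraries is not settled. Deviations from the group mean of same-numbered vehicle and AP-3-84 libraries correlated at -0.53 to 0.52, and in no population were all above 0.1. In KO M1 they were 0.45, 0.52 and -0.06, and in WT M2 0.26, -0.15 and 0.27. In the other populations none was above 0.0875. Deviations of 3 libraries from their mean sum to 0, so this check cannot exclude a pairing.

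The counts of single mitochondrial synthetases in bone marrow-derived libraries, with medians of 5 to 123, were low, and a synthetase that was not called is not shown to be unchanged.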
